A study of Equus caballus with 9 samples.

Results

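The genes described here are those whose expression was highest in equine adult tenocytes when adult tenocytes, fetal tenocytes and ESC-tenocytes were kept in three-dimensional (3D) culture. They are 98 of the 21689 genes in the deposited table. Expression is given in CPM, the count of a gene for each 1000000 counts of its library. Members were selected on these CPM values. A gene was taken if it had at least 2 CPM in each of the 3 adult lines, if the lowest adult line was above 2 times the highest of the other 6 libraries, and if the adult mean was more than 4 times both the fetal and the ESC mean. The members were thus chosen by their adult level against both other groups, and every adult value is given as a description with no test. The fetal to ESC comparison was not used by the rule and was tested.

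Tenocytes are the fibroblast-like cells that lie in rows between the collagen fibres of tendon and produce and maintain its matrix. Fetal tendon is rich in cells with thin collagen fibrils, and as tendon matures the cells become sparser and the fibrils thicker and more cross-linked. ESC-tenocytes are made by culture of embryonic stem cells (ESCs) in conditions that favour the tendon lineage. The comparison left free by the rule asks whether the fetal level of these genes lies between those of ESC-tenocytes and adult tenocytes.

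Each group held 3 lines with 1 library per line, and every construct was cultured for 14 days in collagen gel. Adult tenocytes came from healthy superficial digital flexor tendons of horses aged 2 to 6 years, as lines CD and TB250718B at passage 4 and TB130911 at passage 6. Fetal tenocytes came from tendons of spontaneously aborted fetuses, as line 271d at passage 5, 319d at passage 8 and 320d at passage 4, each named for its day of gestation. ESC-tenocytes came from lines of separate embryos, HJ at passage 12, PW at passage 14 and IG at passage 16. Adult and fetal cells were kept in tenocyte medium and ESC-tenocytes in ESC medium without leukaemia inhibitory factor. The ESCs had been grown on mouse embryonic fibroblasts and were placed in gel as clumps. Tenocytes were placed in gel as suspended cells. Cell type, medium and these differences in handling cannot be told apart in any comparison with ESC-tenocytes. Several constructs were combined for each RNA sample and the ESC-tenocytes were not sorted. In such bulk RNA, fewer cells of a type and less RNA per cell cannot be told apart.

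Among adult tenocytes, CD had 11109492 counts in total, TB130911 20411868 and TB250718B 18536676. Among fetal tenocytes, 271d had 19801323, 319d 20705852 and 320d 10568491. Among ESC-tenocytes, HJ had 9412112 counts, IG 10772461 and PW 8965593. The libraries thus fell into a deeper class of 4 (TB130911, TB250718B, 271d and 319d) and a lower class of 5, which held all the ESC-tenocytes. Sequencing was done by 2 providers with different library kits, but the sources used here do not assign libraries to them. A library with 0 counts of a gene is compatible with up to 3 counts, and this floor equals 0.335 CPM in the shallowest ESC library and 0.284 CPM in the shallowest fetal library. It covers counting error only. The deposited table lists genes by Ensembl identifier and does not pair them with names. None of its identifiers matched the RefSeq gene table given with it (0 of 21689), so the members are described by their levels and 3 of them by identifier. For the same reason the cell type labels could not be checked here against tendon markers or the markers of other cell types.

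At least 2 CPM in each adult line was reached by 10832 genes, of which 119 also had their lowest adult line above 2 times the highest other library. Of these, 100 passed the ratio to the fetal mean and 98 the ratio to the ESC mean. Genes that met every other criterion numbered 55 below the adult minimum, 49 below the ratio to the highest other library, 19 below the ratio to the fetal mean and 2 below the ratio to the ESC mean. The highest of the other 6 libraries was 320d for 57 members, 319d for 29 and 271d for 2, and an ESC library for the other 10 (HJ 4, IG 3 and PW 3). Just inside the limit of 2 for the ratio to that library lay members at 2.00194, 2.00335 and 2.00633, and just outside it genes at 1.9973, 1.99499 and 1.97379 that met every other criterion. For the adult minimum the nearest members were at 2.25, 2.40 and 2.40 CPM and the nearest genes outside at 1.98, 1.71 and 1.67 CPM. For the adult to fetal ratio of means the values were 4.02, 4.03 and 4.04 inside and 3.70, 3.61 and 3.60 outside. For the adult to ESC ratio they were 4.11, 4.49 and 4.71 inside, and the only genes that failed this criterion alone were at 3.42 and 2.66. Without adult line TB130911 the rule found 166 genes, and without fetal line 320d it found 182.

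The members spanned a wide range of adult expression. The adult mean ran from 3.17 to 2022 CPM with a median of 31.2 CPM, and 21 members lay under 10 CPM, 56 from 10 to 100 CPM, 13 from 100 to 500 CPM and 8 at or above 500 CPM. A few genes carried most of the members' summed expression in CPM. The most abundant member ranked 44th among all genes by adult mean and gave 17.0% of the members' summed adult expression, and the 9 most abundant gave 64.2%. Together the 98 genes took 1.13% (CD), 0.888% (TB130911) and 1.55% (TB250718B) of the counts of the adult libraries. They took 0.0789% (271d), 0.155% (319d) and 0.246% (320d) of the fetal libraries, and 0.0306% (HJ), 0.0421% (IG) and 0.0354% (PW) of the ESC libraries.

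**Figure D1:**
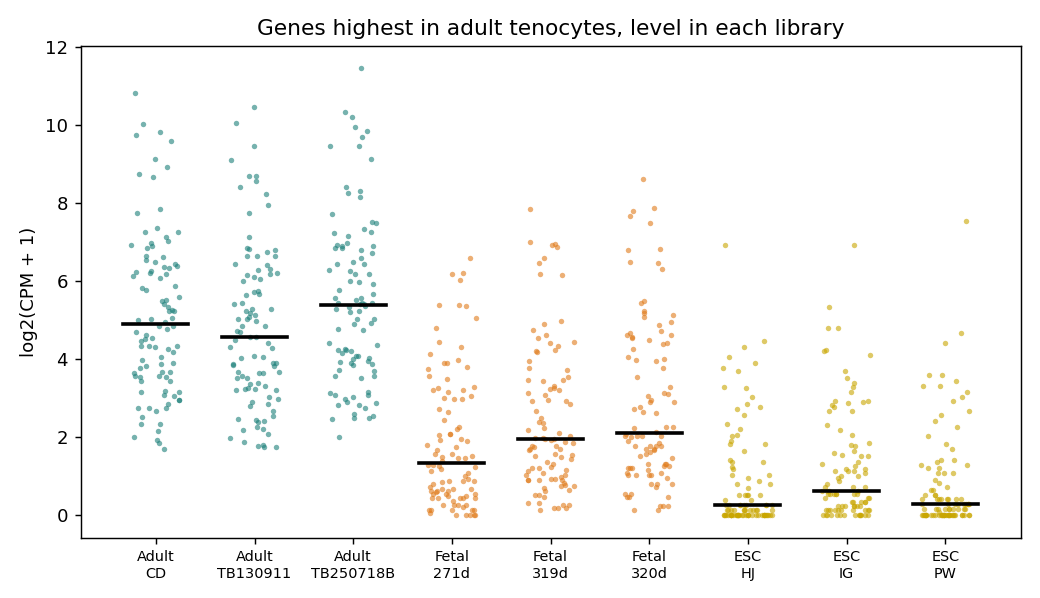
Expression of the 98 genes highest in adult tenocytes in each of the 9 libraries. Each point is 1 gene, the y axis is log2(CPM + 1), the horizontal spread within a library is random, and the black line is the median over genes. The medians equal 22.8 to 40.9 CPM in adult lines, 1.54 to 3.31 CPM in fetal lines and 0.212 to 0.557 CPM in ESC lines.

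Fetal expression lay between that of ESC-tenocytes and adult tenocytes for most members. The fetal mean of log2(CPM + 1) was above the ESC mean and under the adult mean in 90 of 98 members and below the ESC mean in the other 8. The rule places the adult lines above all others, so only the order of fetal and ESC-tenocytes was free here. Over all 13197 genes tested the fetal mean was below the ESC mean in 51.1%, against 8.16% of the members. All 3 fetal lines lay above all 3 ESC lines in 62 members (63.3%), against a background of 31.3% of all tested genes. All 3 fetal lines lay below all 3 ESC lines in 2 members, against a background of 31.4%. In the remaining 34 members the fetal and ESC lines overlapped. Only 59 of the 98 members passed the filter on low counts without the adult libraries. The shares above include the other members, which passed through the group in which they were chosen to be high.

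The place of the fetal level between the other groups varied between members. On a scale from 0 at the ESC mean to 1 at the adult mean of log2(CPM + 1), the fetal mean had a median position of 0.277 with quartiles of 0.154 and 0.414. It lay below 0 in 8 members, from 0 to 0.25 in 37, from 0.25 to 0.5 in 36 and from 0.5 to 0.75 in 17. The rule sets a least distance between fetal and adult tenocytes, which holds the position below 1, and no least distance between fetal and ESC-tenocytes. The position is therefore a description, from which it cannot be told whether fetal tenocytes are nearer to either group. The position differed between the fetal lines, with a median of 0.137 for 271d, 0.281 for 319d and 0.409 for 320d. Differences between low genes are compressed by the added 1 CPM. With 0.5 CPM added the median position was 0.321, and with 2 CPM it was 0.230. Over the 34 members with a mean of at least 5 CPM in the fetal and ESC libraries the median position was 0.457. That choice takes members of high fetal level.

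Summed over the 98 members, expression was 1599 ± 837 CPM (SD, n = 3) in fetal tenocytes and 360 ± 58.1 CPM (SD, n = 3) in ESC-tenocytes. The fetal values were 789 (271d), 1549 (319d) and 2460 (320d) CPM, and the ESC values 306 (HJ), 421 (IG) and 354 (PW) CPM. The groups did not overlap, and the fetal mean was 4.44-fold higher (two-sided p = 0.1 by an exact permutation test, which cannot give a smaller p with 3 lines against 3). Without the member most abundant in adult tenocytes the ratio was 3.94, and for the median over members it was 7.78. A single member gave 39.6% of the ESC sum, and without it, an alternative chosen after seeing the data, the ratio was 6.89. Adult tenocytes, chosen to be high, were at 11893 ± 3330 CPM (SD, n = 3).

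Between fetal and ESC-tenocytes 22 of the 98 members were called higher in fetal tenocytes by edgeR's quasi-likelihood test. A call needed a log2 fold change of at least 2 and an adjusted p below 0.01, by the method of Benjamini and Hochberg over all genes tested. The 22 are 22.4% of the members, against a background of 7.98% of the 13197 genes tested. No member was called lower, where the background is 6.74%. All 98 members passed the filter on low counts, but 39 of them did so only with the adult libraries in the table, the group in which they were chosen to be high, and every count over the 98 includes them. In a fit of the 6 fetal and ESC libraries alone, 59 members were tested and 11 called higher, against a background of 7.42%, and 10 of the 11 were among the 22. At an unadjusted p under 0.05, 66 members were higher (background 28.1%) and 0 lower (background 25.2%) in edgeR with all libraries, and without 320d 31 were higher (background 18.4%). With an adjusted p under 0.05 and a log2 fold change of at least 1, edgeR called 55 higher (background 18.6%). DESeq2 called 51 members higher, against a background of 12.1%, and 0 lower (background 9.04%), with 1 lower at an unadjusted p under 0.05 (background 27.8%). The median log2 fold change over the members was 3.41 with quartiles of 1.56 and 4.88, and over all tested genes it was 0.01. With the 8 members at 0 counts in every ESC library set to the bound that the floor allows, or left out where the fetal mean was also at or under the floor (3 members), the median was 3.20. The edgeR count of members called higher depended on single libraries. It fell to 2 without 320d (background 0.368%), 7 without PW (4.71%) and 9 without 319d (4.68%). It was 10 without TB130911 (background 4.82%), 10 without HJ (4.14%), 11 without CD (3.71%) and 31 without IG (11.1%). Without 320d the fetal libraries left were all in the deeper class and the ESC libraries all in the lower class. Only the adult lines then separated depth class from cell type, and the part of this in the fall was not tested. With the 5 libraries of the lower depth class alone, where 320d is the only fetal library and its spread is taken from the ESC lines, 1 member was called against a background of 0.0941%, and 62 members were higher at an unadjusted p under 0.05 (background 19.4%). The fit of the lower depth class thus describes 320d and not the fetal group. Without the term for depth class the edgeR count was 33, against a background of 10.9%. In edgeR 0 members were called lower without this term (background 8.34%) or without IG (background 6.34%). At an unadjusted p under 0.05, 1 member was lower without the term (background 27.6%), without IG (background 23%) and without PW (background 23.6%).

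The 22 called members had moderate adult levels, with adult means from 7.79 to 209 CPM. All 3 fetal lines lay above all 3 ESC lines in each of them, which their choice by this same comparison makes likely. In 7 of the 22 no ESC library rose above the floor, which leaves the size of their fold change uncertain. One of these had 0 counts in every ESC library and was at least 3.03-fold higher in fetal tenocytes, where its mean was 1.01 CPM. The other 15 had log2 fold changes from 2.15 to 6.24 with a median of 4.34. In 18 of the 22 the line 320d was the highest of the fetal lines. It was so in 62 of the 98 members and in 37.2% of all tested genes with unequal values.

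**Figure D2:**
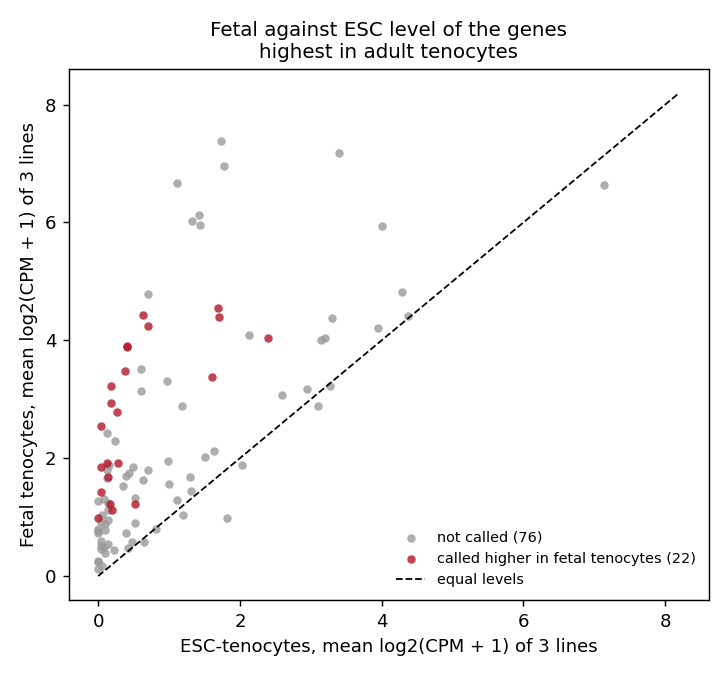
Fetal level (y axis) against ESC level (x axis) of the 98 members, each as the mean log2(CPM + 1) of 3 lines, with 1 point per gene. Red points are the 22 members called higher in fetal tenocytes by edgeR, grey points are the other 76, and the dashed line marks equal levels, below which 8 members lie.

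The 9 members with an adult mean above 300 CPM were not called, and 0 of 9 is near the background of 7.98%. In 8 of the 9 all fetal lines lay above all ESC lines (background 31.3%). Their adjusted p-values in edgeR's quasi-likelihood test ran from 0.011 to 0.379. In 7 of these 9 genes HJ and PW were both under 1.2 CPM while IG was more than 5 times higher than either, at 2.60 to 26.8 CPM. The most abundant member shows this pattern. It was at 1829 (CD), 1423 (TB130911) and 2816 (TB250718B) CPM in adult tenocytes. In fetal tenocytes it was at 95.4 (271d), 122 (319d) and 390 (320d) CPM. In ESC-tenocytes it was at 0.744 (HJ), 16.4 (IG) and 0.223 (PW) CPM. No 2 of the groups overlapped, but among the ESC-tenocytes IG stood well above the other lines. In edgeR's quasi-likelihood test the log2 fold change of fetal over ESC-tenocytes was 5.50 with a standard error of 1.58, and the adjusted p of 0.0263 did not pass 0.01. Without IG the same test called 8 of these 9 members higher in fetal tenocytes (background 11.1%), and the most abundant member then had a log2 fold change of 9.18 (adjusted p = 0.00045). Its adjusted p ranged from 0.00045 to 0.28 over the settings tried in edgeR and DESeq2. With all libraries DESeq2 called 6 of the 9 (background 12.1%), while edgeR called 4 without the term for depth class (background 10.9%) and 1 without CD (background 3.71%). In 12 of the 16 settings 0 of the 9 were called, where the background was at most 8.29%. These 12 include leaving out each of the other libraries. The most abundant member was called in 2 of the 16. In all 9 genes 271d was the lowest fetal line, and in 6 of them 320d was the highest.

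ENSECAG00000024705 was the called member with the highest adult expression. It was at 126 (CD), 215 (TB130911) and 286 (TB250718B) CPM in adult tenocytes. The fetal lines were at 12.5 (271d), 29.0 (319d) and 30.1 (320d) CPM and the ESC lines at 1.27 (HJ), 3.53 (IG) and 2.23 (PW) CPM. The 3 groups were thus in order without overlap, with the fetal mean at 0.480 of the distance from ESC to adult on the log2(CPM + 1) scale. In edgeR's quasi-likelihood test fetal tenocytes were higher than ESC-tenocytes by a log2 fold change of 3.28, with a standard error of 0.60 and an adjusted p of 0.00501. This call was lost without TB130911 (adjusted p = 0.0121), 319d (0.0117), 320d (0.111), HJ (0.0162) or PW (0.0183) in the same test. Within the lower depth class, where 320d is the only fetal library, the log2 fold change was 3.70, given as a size only and not as a call. Over all settings the log2 fold change ran from 2.25, without 320d, to 3.77, without IG, and the adjusted p from 2.95e-08 in DESeq2 to 0.111 in edgeR.

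ENSECAG00000005573 had the smallest p of the called members. Adult lines were at 74.8 (CD), 53.0 (TB130911) and 76.1 (TB250718B) CPM. Fetal lines were at 1.97 (271d), 2.17 (319d) and 2.46 (320d) CPM, with 39, 45 and 26 counts, and each ESC line had 1 count. The fetal lines lay close together, far under the adult lines and above the ESC lines. The pooled counts, 110 fetal and 3 ESC, gave a fetal to ESC ratio of 20.9 with an exact 95% interval from 6.98 to 103 that covers counting error only. The fitted log2 fold change in edgeR, which at such counts depends on the model, was 4.52 with a standard error of 0.36 and an adjusted p of 0.000329 in the quasi-likelihood test. The call held in each of the 15 alternative fits, with adjusted p-values of 0.00947 or less in edgeR and DESeq2. Its lowest adult line was 21.5 times its highest other library, where the median over members was 3.20 and the largest value 53.9.

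ENSECAG00000014243 was the member with the largest difference in the opposite direction between fetal and ESC-tenocytes. Adult lines were at 28.2 (CD), 25.5 (TB130911) and 40.4 (TB250718B) CPM. Fetal lines were at 0.606 (271d), 1.35 (319d) and 1.04 (320d) CPM, with 12, 28 and 11 counts. ESC lines were at 5.63 (HJ), 1.49 (IG) and 1.67 (PW) CPM, with 53, 16 and 15 counts. All fetal lines lay below all ESC lines, of which HJ was the highest. The log2 fold change of fetal over ESC-tenocytes was -1.53 with a standard error of 0.75, and by edgeR's quasi-likelihood test its adjusted p of 0.134 did not pass the threshold. It was -0.66 without HJ (adjusted p = 0.361 in the same test), and the adjusted p ranged from 0.053 to 0.382 over the settings tried in edgeR and DESeq2.

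**Figure D3:**
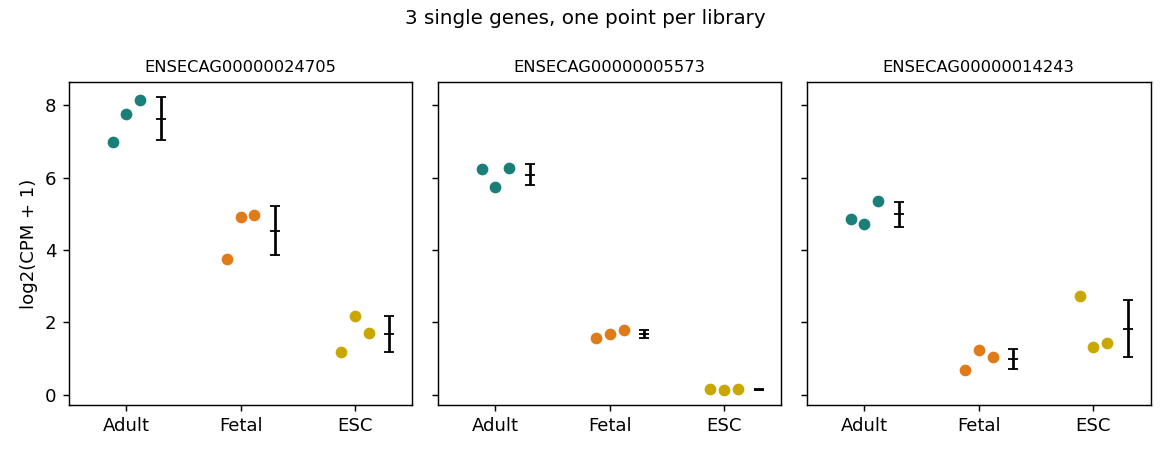
Expression of 3 members in adult, fetal and ESC-tenocytes, as log2(CPM + 1) on the y axis. Each point is 1 library, and the black mark and bar are the mean and SD of the 3 lines. ENSECAG00000024705 and ENSECAG00000005573 are highest in adult and lowest in ESC-tenocytes without overlap, and ENSECAG00000014243 is lowest in the fetal lines.

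The other member with all fetal lines below all ESC lines was abundant in every library. It was at 408 (CD), 414 (TB130911) and 1194 (TB250718B) CPM in adult tenocytes and at 72.6 (271d), 117 (319d) and 111 (320d) CPM in fetal tenocytes. The ESC lines were at 120 (HJ), 122 (IG) and 186 (PW) CPM. The fetal and ESC lines came close to each other, with a log2 fold change of -0.64 for fetal over ESC-tenocytes and, by edgeR's quasi-likelihood test, an adjusted p of 0.379. This gene is the member that gave 39.6% of the members' summed expression in ESC-tenocytes.

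Many members were at the limit of detection in ESC-tenocytes. In 33 members every ESC library was at or under the floor of 3 counts, and in 8 of these every ESC library had 0 counts. For those 8 genes expression in adult tenocytes was at least 10.9-fold to 51.9-fold higher than in ESC-tenocytes. The number of members at or under the floor was 59 in HJ, 36 in IG and 62 in PW, against 12 in 271d, 4 in 319d and 5 in 320d. In fetal tenocytes 83 members were above the floor in all 3 lines, and 1 member was at or under it in all 3 lines. Of the 33 genes at or under the floor in ESC-tenocytes, 21 were above it in all fetal lines, with fetal means from 0.371 to 8.93 CPM. The counts in this paragraph are over all members, and include those that passed the filter on low counts only with the adult libraries. The matching shares over all tested genes are not given, so these counts are a description of the members only. The ESC libraries and 320d were in the lower depth class and 271d and 319d in the deeper class, and the part of depth in these numbers was not tested. At the other end, 31 members were above the floor in all 9 libraries.

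The lines within a group differed in a recurrent order. Among fetal lines 271d was the lowest in 78 of 98 members and 320d the highest in 62, where 30.4% and 37.2% of all tested genes with unequal values had these lines in those places. Both held in 55 members. In 16 members 320d had at least 1 CPM and was over 3 times the next fetal line, which was so for 319d in 3 members and for 271d in 0. For the 55 members and for this pattern the share over all tested genes is not given. Neither can thus be read as particular to the members. The median difference of 320d over 271d was 0.74 in log2(CPM + 1) over the members and -0.01 over all tested genes. The line 320d was at passage 4 and in the lower depth class, 271d at passage 5 and 319d at passage 8, both in the deeper class. The part of gestational age, passage and depth class in this order was not tested, as each fetal age is 1 line.

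Among adult lines TB250718B was the highest in 64 members and TB130911 the lowest in 63. Over all tested genes these shares were 26.2% and 25.1%. TB130911 was at passage 6 and the other adult lines at passage 4, and the part of passage in this order was not tested. The coefficient of variation between adult lines had a median of 37.6% over the members, with quartiles of 23.6% and 51.8%. Over the 10832 genes with at least 2 CPM in each adult line it was 15.8%. The highest adult line was under 2 times the lowest in 45 members and over 5 times in 6, and the largest ratio was 28.4. That gene was at 76.5 (CD), 2.69 (TB130911) and 13.9 (TB250718B) CPM, under 0.6 CPM in each of the other 6 libraries, and so owes its adult mean largely to line CD.

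Among ESC lines IG was the highest in 57 of the 90 members whose ESC values were not all equal, a share of 63.3% against 33.9% of all tested genes. In 13 members IG had at least 1 CPM and was over 3 times the next ESC line, which was so for HJ in 3 members and for PW in 1. The share of all tested genes with this pattern is not given. IG had a count in 15431 genes of the whole table, against 14306 in HJ and 14449 in PW, and was at passage 16, the highest of the ESC lines. The part of these differences in the higher level of IG was not tested.

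The differences that the rule used are given as a description only. The ratio of the adult to the fetal mean CPM had a median of 7.85 over the members, with quartiles of 5.58 and 12.8. The adult to ESC ratio, which is defined for the members with a count in ESC-tenocytes, had a median of 82.7 with quartiles of 13.9 and 219.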

How the data were processed

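RNA from the constructs of 9 lines was sequenced, with 3 lines per group and 1 library per line. According to the methods, and to the submitters' processing notes for Salmon and R, the authors quantified reads with Salmon, in quasi-mapping mode with GC-bias correction, against the Ensembl version 96 EquCab 3 horse transcriptome and imported genes with tximport in R 3.5.2. They deposited estimated counts, not normalised, for 21689 genes, of which 17648 had a count. Other transcript lengths or mapping between similar genes could shift levels, and levels were not divided by length, so they rank genes by reads and not by molecules.

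CPM used column sums, and log2 values used a pseudocount of 1. For tests the estimated counts were rounded, filtered with filterByExpr (13197 genes), normalised by TMM and fitted with edgeR 4.0.16 (R 4.3.3), with group and depth class as terms. Depth class replaces the batch term of the methods and splits the libraries at the widest gap in total counts. It had 0 genes at an adjusted p under 0.01 and 1096 at an unadjusted p under 0.05. A standard error is the log2 fold change divided by the square root of F. DESeq2 1.42.0, scaling, filters, thresholds and leaving out each library were alternatives. The lines of each group were checked for a library deposited more than once, and none was found (chi-square of 45.8 or more for each degree of freedom between any pair), which says nothing of the groups. The fit was tested before use on simulated data, where it called 54% of the true 4-fold changes and 100% of the 8-fold changes. The simulation changed only genes of higher counts and gave all genes the same spread. It does not cover members near the floor or single lines that stand apart. The members, lists and rules were chosen with earlier results of these data known. The lists of tendon, other cell type and pathway genes could not be used, as the tables read here pair no identifier with a name. By the rule for named genes, identifiers are given for the called member of highest adult CPM, that of smallest p, and the member with the largest fold change in the other direction. Other single genes were described after their values were seen.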

Additional observations from a re-analysis of the deposited data

How the results depend on the processing

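The number of genes highest in adult tenocytes was 54 with the lowest adult line above 3 times the highest other library and 47 with means above 8 times, and from 88 to 182 with 1 library left out. It was 103 with TMM-scaled CPM or DESeq2's size factors, including all 98. The number of members called higher in fetal than in ESC-tenocytes was 51 in DESeq2 (background 12.1%), 55 at an adjusted p under 0.05 with a log2 fold change of 1 (18.6%), 11 with only the fetal and ESC libraries (59 members tested, 7.42%), 1 in the lower depth class alone (0.0941%) and from 2 to 31 with 1 library left out. None of the 18 edgeR and DESeq2 alternatives called a member lower (background from 1.22% to 14.9%), and at most 1 was lower at an unadjusted p under 0.05 (background from 16.7% to 28%). The fetal mean lay between the ESC and adult means in 87 to 93 members with 1 library left out, and the median position of 0.277 was 0.457 in the members with a mean of at least 5 CPM over the fetal and ESC libraries, a choice that takes members of high fetal level, and 0.321 and 0.230 with 0.5 and 2 CPM added. No paired analysis was possible because the lines of the groups came from different individuals (adult horses, fetuses and embryos). Differences among libraries at or under 3 counts were not detectable at this depth. The cause of these shifts was not tested.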
